A study of Mus musculus with 2 samples.

Results

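Chemokines and their receptors were examined in RNA sequencing of Th17 cells, as 48 of the 17002 genes in the expression table, whose symbols carry the chemokine ligand prefixes (Ccl, Cxcl, Xcl, Cx3cl) or the receptor prefixes (Ccr, Cxcr, Xcr, Cx3cr, Ackr) followed by a digit. These were 28 ligand genes and 20 receptor genes. The series compared 1 library from wild-type mice with 1 library from lncRNA-GM-/- mice, which lack a long non-coding RNA; both were on the C57BL/6 strain. In both, naive CD4+ T cells of the spleen had been held under Th17-polarising conditions for 3 days. The age and number of the mice, any pooling and the polarising cytokines are not given in the sources used here, and the table column of the knockout carries the name ko8. Solving the authors' deposited p-values for read numbers put the depth near 19.5 M (mega, 1e6) fragments for the wild-type library and 19.2 M for the knockout library.

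With 1 library per genotype there is no replicate spread and no test: each difference below is between 2 libraries and has no replicate check. Levels are in FPKM, fragments per kilobase of transcript and per M mapped fragments. A gene counted as measured at 1 FPKM or more in at least 1 library. Log2 ratios and folds are knockout over wild type on FPKM + 1, a scale that understates the difference of low genes, and a fold of 1.5 was used for counts. Intervals are 95% exact (Clopper-Pearson) intervals of the ratio of reconstructed reads and cover counting error only.

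Chemokines are small secreted proteins that bind heptahelical receptors coupled to inhibitory G proteins and steer the migration of leukocytes. A T cell changes its receptors as it differentiates: CCR7 and CXCR4 belong to homing and retention in lymphoid tissue, CXCR3 and CXCR6 are typical of Th1 and cytotoxic cells, CCR6 is the receptor most associated with Th17 cells, and CCR4 and CCR8 are found on Th2 and regulatory T cells. Activated T cells also secrete chemokines, mainly CCL3, CCL4 and CCL5, whereas many other ligands come from myeloid, stromal or epithelial cells.

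The labelled cell type was checked by its defining genes. All 11 Th17 genes listed were measured, among them Il17f at 1056 FPKM in wild-type and 382 FPKM in knockout cells and Il17a, the signature cytokine, at 392 and 178 FPKM. Of the 11, 6 were lower in the knockout by 1.5-fold or more and none was higher by as much, beside 5.19% and 2.71% of all measured genes. The median log2 ratio of the 11 was -0.62, with sums of 1939 and 1112 FPKM. Il22 (46.0 and 67.3 FPKM), Irf4 and Maf had higher knockout values inside the limit. All 9 pan-T and CD4 genes were measured and within 1.5-fold. RNA of CD8 T and natural killer cell markers was also present in both libraries, with Cd8a at 98.1 and 55.7 FPKM. The deleted transcript, lncRNA-GM, was not analysed here, and it therefore gives no check of the genotype labels.

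More measured receptors had lower than higher RNA levels in the knockout library; the lower ones were Cxcr6, Ccr2, Cxcr3, Ccr1, Xcr1 and Cxcr2. Of 13 measured receptors, 6 were lower by 1.5-fold or more and 2 were higher by as much, where 5.19% of all 10998 measured genes were lower and 2.71% higher by that fold. Cxcr1 was counted as measured only through the knockout library; of the 12 receptors at 1 FPKM or more in both libraries, 6 were lower and 1 was higher, beside 4.10% and 2.01% of 10475 such genes. The median log2 ratio of the 13 was -0.53, and that of all measured genes was -0.03. Summed over the measured receptors, the level was 458 FPKM in wild-type and 339 FPKM in knockout cells.

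**Figure D1:**
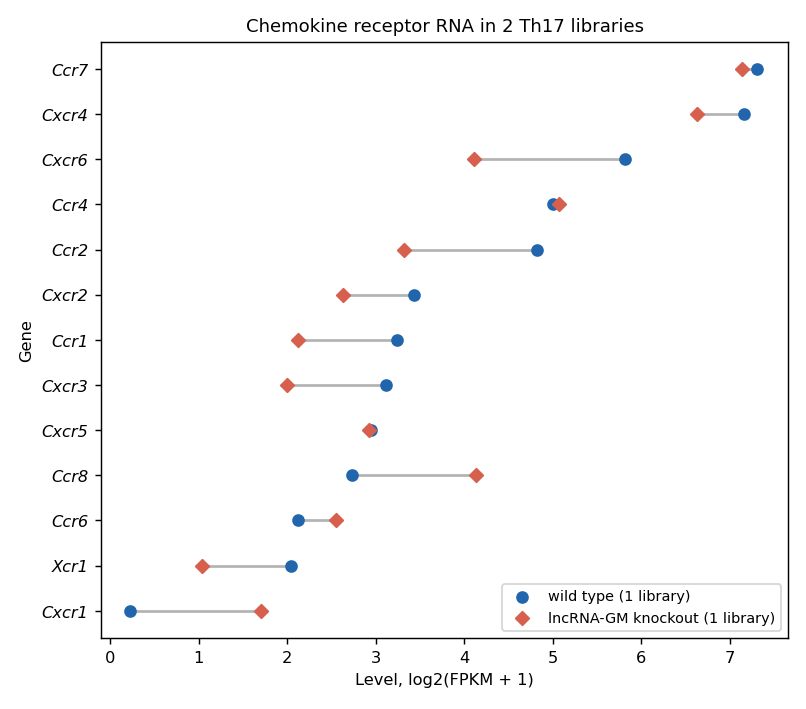
Level of each of the 13 measured chemokine receptors as log2(FPKM + 1), with 1 point for the wild-type library and 1 for the lncRNA-GM knockout library, ordered by the wild-type level. The widest gaps toward lower knockout levels are those of Cxcr6 (55.4 and 16.3 FPKM) and Ccr2 (27.4 and 8.96 FPKM), whereas Ccr8 and Cxcr1 lie higher in the knockout.

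Ccr7 and Cxcr4, the receptors of lymph node homing and of bone marrow and lymphoid retention, had the highest receptor levels in both libraries. Ccr7 stood at 158 FPKM in wild-type and 140 FPKM in knockout cells, which ranked 431 and 495 among the measured genes. Cxcr4 was at 142 and 97.7 FPKM, 1.45-fold lower in the knockout and just inside the 1.5-fold limit, with a read interval of -0.60 to -0.47. Together they made up 65.4% of the summed receptor FPKM in the wild type and 70.2% in the knockout. Cxcr5, the receptor that directs cells to B cell follicles, was at 6.71 and 6.58 FPKM, and its read interval of -0.25 to 0.19 spans 0. Its exons overlap 110 bases of Bcl9l on the opposite strand. No member of this homeostatic group differed by 1.5-fold; Ccr9, Ccr10 and Ackr4, which belong to gut, skin and scavenging functions, were under 1 FPKM in both libraries.

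All 5 measured receptors in the list for Th1 and cytotoxic cells had knockout levels lower by 1.5-fold or more, beside 5.19% of all measured genes. The list was drawn up with earlier results of these data known and holds most of the lower receptors, so this count is a description only. Xcr1 is also in the list for macrophages and dendritic cells. The summed FPKM of the listed receptors, with Cx3cr1, was 102 for the wild type against 33.2 for the knockout. Cxcr6, the receptor of the membrane-bound ligand CXCL16 on effector T cells, was at 55.4 FPKM in wild-type cells against 16.3 FPKM in knockout cells. This was 3.25-fold lower, on about 2035 and 590 reads, with a read interval of -1.90 to -1.63. It stood at rank 1486 in the wild type and 4748 in the knockout. Ccr2, which binds monocyte chemoattractants such as CCL2, was 2.85-fold lower, at 27.4 and 8.96 FPKM. It rested on 1943 and 625 reads, with a read interval of -1.75 to -1.48.

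Cxcr3, the receptor of the interferon-induced ligands CXCL9 and CXCL10, stood at 7.65 FPKM in wild-type and 3.00 FPKM in knockout cells. Ccr1, an inflammatory receptor of CCL3 and CCL5, was at 8.42 and 3.36 FPKM. Xcr1, known as the receptor of cross-presenting dendritic cells, was at 3.11 and 1.06 FPKM, on 271 and 90 reads. These 3 receptors were 2.16-fold, 2.16-fold and 1.995-fold lower, so that lower values were not limited to the abundant receptors. Cx3cr1, the fractalkine receptor of cytotoxic cells and monocytes, was under 1 FPKM in both libraries, at 0.26 and 0.48 FPKM.

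The receptors tied to Th17 cells were split. Of the 4 in that list, all measured, 2 were lower by 1.5-fold or more and none was higher, beside 5.19% and 2.71% of all measured genes. The lower ones were Ccr2 and Cxcr3, both also in the list for Th1 and cytotoxic cells. Ccr6, the Th17-associated receptor of CCL20, was at 3.35 FPKM in wild-type cells against 4.85 FPKM in knockout cells, a 1.34-fold higher value inside the 1.5-fold limit. Its read ratio without a pseudocount was 0.76 (interval 0.37 to 1.15), which is past that limit, although the reads of this gene, with several annotated transcripts, were matched only with a loose fit to the FPKM ratio. Ccr4, the receptor of CCL17 and CCL22, found on Th2 and regulatory T cells as well, was close to equal, at 31.1 and 32.6 FPKM, with a read interval of -0.03 to 0.19. Ccr8, a receptor of Th2 and tissue regulatory T cells, was 2.65-fold higher, at 5.64 and 16.6 FPKM on 125 and 362 reads, with a read interval of 1.26 to 1.86. Ccr8 thus ranked 8110 in the wild type and 4673 in the knockout, close to the knockout rank of Cxcr6.

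The paired neutrophil receptors Cxcr1 and Cxcr2 pointed in opposite directions. Cxcr2, which binds CXCL1, CXCL2 and CXCL3, stood at 9.83 FPKM in wild-type and 5.21 FPKM in knockout cells, 1.74-fold lower with a read interval of -1.12 to -0.71. It has a near-identical copy, Gm37750, that was not analysed here, so its value is uncertain. Cxcr1 was at 0.17 and 2.25 FPKM, on 5 and 53 reads, 2.78-fold higher on FPKM + 1 with a read interval of 2.12 to 5.11; its reads too were matched only with a loose fit. The genes are neighbours on chromosome 1 (GRCm38.p6), Cxcr2 from 74153994 to 74161246 and Cxcr1 from 74191785 to 74194708. Of 10 neutrophil and mast cell markers, 8 were measured, and the list summed to 101 FPKM in wild-type and 42.0 FPKM in knockout cells. By 1.5-fold or more, 5 were lower in the knockout and 1 was higher, beside 5.19% and 2.71% of all measured genes. The lower genes were the mast cell genes Mcpt1, Mcpt2, Cpa3 and Kit, and Ly6g, which at 71.6 and 30.3 FPKM made up most of the sums. The neutrophil genes S100a8 (0.43 and 1.01 FPKM) and S100a9 had higher knockout values, S100a8 inside the limit. S100a8 and S100a9 reached 1 FPKM in the knockout library only, and Mcpt2 and Cpa3 in the wild-type library only. For these genes the direction was a condition of being counted. Among the defining genes, Elane and S100a9 were listed at 0 for wild-type cells (0.12 and 2.23 FPKM in knockout cells), Mpo was listed at 0 in the knockout (0.02 FPKM in the wild type), and Csf3r was at 2.18 and 1.94 FPKM. Their part in the Cxcr1 and Cxcr2 values was not tested.

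Of the 6 lower receptors, 4 lie together in the genome. On GRCm38.p6, 7 of the 20 receptor genes lie within 341.9 kb on chromosome 9, from 123767211 (the start of Ccr9) to 124109140 (the end of Ccr2). All 4 measured among these, Cxcr6 (123806477 to 123811754), Xcr1 (123852315 to 123862029), Ccr1 (123962126 to 123968692) and Ccr2 (124101918 to 124109140), had lower knockout levels by 1.5-fold or more. Of all measured genes, 5.19% were lower by that fold. The other 3 receptors of the cluster were under 1 FPKM in both libraries and also below 0 in log2 ratio. Ccr3, the eosinophil and Th2 receptor, was at 0.62 FPKM in wild-type cells against 0.09 FPKM in knockout cells on 28 and 5 reads, with a read interval of -4.19 to -1.07. Ccr1l1 was at 0.21 FPKM on 6 reads and listed at 0 in the knockout, and Ccr9 was at 0.27 and 0.17 FPKM with an interval that spans 0.

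Genes of other kinds in and around the cluster were within 1.5-fold, as were 10129 of all 10998 measured genes. Within 500 kb on either side, 10 genes of other kinds were measured, with log2 ratios from -0.49 to 0.32. With so few genes, this is close to what most genes showed. Fyco1, an autophagy adaptor gene in whose span Cxcr6 lies, stood at 10.2 FPKM in wild-type and 7.82 FPKM in knockout cells. Lztfl1, next to Ccr9, was at 4.12 and 5.40 FPKM. Receptors elsewhere on chromosome 9 did not follow the cluster: Ccr4 (114490316 to 114505476) was near equal and Ccr8 (120092133 to 120094906) was higher. The grouping by position was chosen after the values were seen and describes these libraries. Cxcr3, on chromosome X, and Cxcr2, on chromosome 1, were lower outside the cluster.

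**Figure D2:**
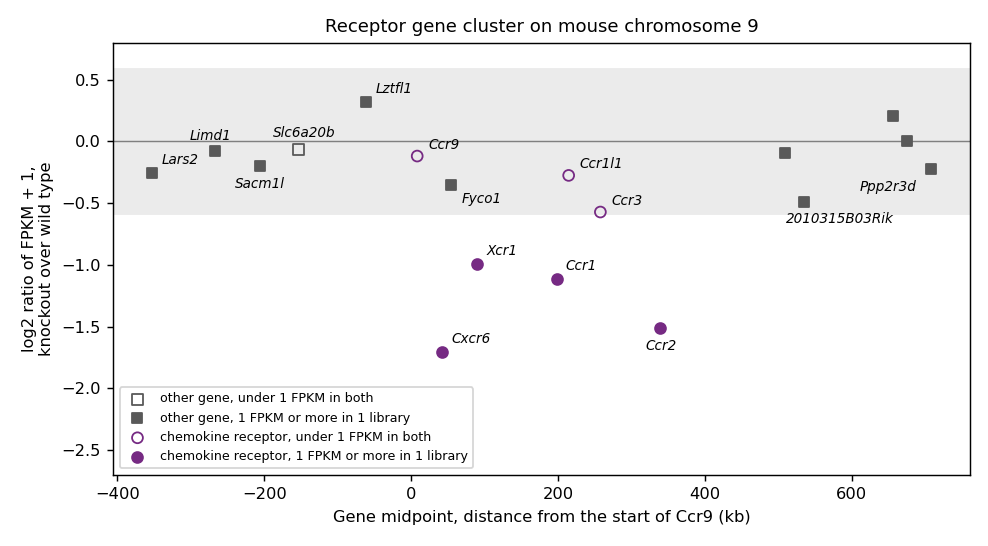
Difference in log2(FPKM + 1), knockout minus wild type, for genes in the chromosome 9 receptor cluster and within 500 kb of it, against the distance of the gene midpoint from the start of Ccr9 in kb; circles are chemokine receptors, squares other genes, open symbols genes under 1 FPKM in both libraries, and grey shading marks less than 1.5-fold. The 4 filled circles lie between -1.70 and -0.996, and all squares lie inside the shading.

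Markers of other T cell and lymphocyte types differed in the same comparison. Of 11 CD8 T and natural killer cell markers, 9 were measured and all 9 were lower in the knockout by 1.5-fold or more. Beside this list and those that follow, 5.19% of all measured genes were lower and 2.71% higher by that fold. The 11 markers summed to 1745 FPKM in wild-type and 593 FPKM in knockout cells, with no marker at 0 in either library. Klrb1c (1.03 and 0.13 FPKM) reached 1 FPKM in the wild-type library only, so a lower knockout value was a condition of its being counted. Of 7 Th1 genes, all were measured, 5 were lower and none was higher by 1.5-fold or more, with sums of 356 and 184 FPKM. Regulatory T cell genes, which like Ccr8 were higher, had 5 of 8 measured members at least 1.5-fold higher and none lower, among them Foxp3 at 6.08 and 15.6 FPKM. Of 5 Th2 genes, 4 were measured and 2 were higher, Il13 (1.68 and 6.19 FPKM) and Il4 (0 and 1.59 FPKM), with Gata3 at 4.45 and 4.73 FPKM. Only the knockout value brought Il4 into the count, so its direction was set by the 1 FPKM minimum. Fewer cells of a type and less RNA per cell cannot be told apart in these bulk libraries, and the part of these cell types in the receptor values was not tested.

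Ligand RNA was lower in level than receptor RNA and split in direction. The 12 measured ligands summed to 56.5 FPKM in wild-type and 51.3 FPKM in knockout cells. Of these, 3 were at least 1.5-fold lower and 5 at least 1.5-fold higher, beside 5.19% and 2.71% of all measured genes. Of the 5 higher ligands, 3 (Ccl6, Ccl24 and Cxcl2), and also Cxcl16, reached 1 FPKM in the knockout library only, so a higher value there was a condition of being counted. Of the 8 ligands at 1 FPKM or more in both libraries, 3 were lower and 2 higher, beside 4.10% and 2.01% of such genes.

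Ccl3, Ccl4 and Ccl5, the inflammatory chemokines of activated T cells, made up 75.6% of the summed ligand FPKM in the wild type and 44.8% in the knockout. Ccl4 was at 21.9 FPKM in wild-type cells against 6.51 FPKM in knockout cells, 3.05-fold lower on 272 and 81 reads, with a read interval of -2.10 to -1.36. Ccl5, a chemokine of late-activated and cytotoxic T cells, was at 11.4 and 7.25 FPKM; at 1.51-fold lower it sat on the limit, with a read interval of -1.11 to -0.21. Ccl3 was at 9.44 and 9.25 FPKM, with an interval of -0.38 to 0.32. Ccl3 and Ccl4 lie together on chromosome 11, with Ccl3 from 83647843 to 83649378 and Ccl4 from 83648624 to 83664683 on GRCm38.p6, and only Ccl4 differed by 1.5-fold. By these coordinates their spans overlap, on opposite strands. The search for overlapping exons, which used the GENCODE M21 annotation, found none between them.

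Xcl1, a chemokine of activated CD8 T and natural killer cells and the ligand of XCR1, was under 1 FPKM in both libraries, at 0.54 and 0.33 FPKM. The interferon-induced CXCR3 ligands were under it too. Cxcl10, the highest of the unmeasured genes, stood at 0.95 FPKM in wild-type and 0.34 FPKM in knockout cells, on 20 and 7 reads, and Cxcl9 was at 0.25 and 0.09 FPKM. Ccl20, the CCR6 ligand that Th17 cells are known to make, was at 0.66 and 0.40 FPKM. The measured gene with the lowest maximum was Cxcl16, at 0.68 and 1.51 FPKM.

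**Figure D3:**
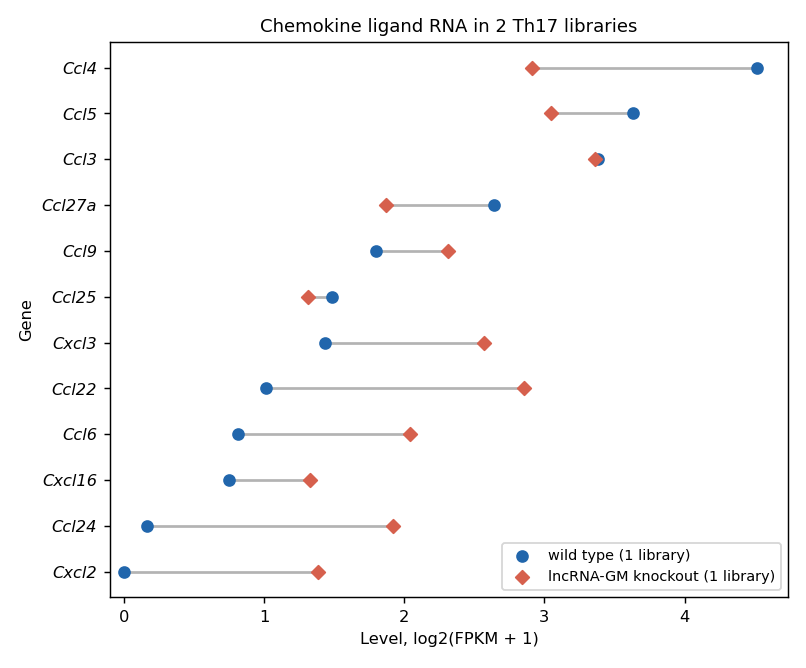
Level of each of the 12 measured chemokine ligands as log2(FPKM + 1), with 1 point for the wild-type library and 1 for the lncRNA-GM knockout library, ordered by the wild-type level. Ccl4 (21.9 and 6.51 FPKM) has the widest gap toward a lower knockout level, and Ccl22 (1.02 and 6.25 FPKM) and Ccl24 (0.12 and 2.78 FPKM) the widest toward a higher one.

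Ccl22, which attracts CCR4-bearing Th2 and regulatory T cells, was 3.59-fold higher in the knockout, at 1.02 and 6.25 FPKM on 36 and 216 reads, with a read interval of 2.09 to 3.16. Its partner on the same receptor, Ccl17, was under 1 FPKM in both libraries, at 0.02 and 0.54 FPKM. Ccl24, an eotaxin that acts on CCR3, was at 0.12 and 2.78 FPKM. On 3 and 53 reads, its read ratio was 4.17 with an interval of 2.54 to 6.49. The Ccl24 reads were matched only with a loose fit to the FPKM ratio. Ccl22 and Ccl24 were thus higher in the knockout, whereas RNA of the receptors was near equal for Ccr4 and under 1 FPKM for Ccr3. Ccl6, a CCR1 ligand of macrophages, was 2.34-fold higher, at 0.76 and 3.12 FPKM. Ccl9, its neighbour with the same receptor, was at 2.48 and 3.97 FPKM, 1.43-fold higher, with a read interval of 0.38 to 0.99.

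The neutrophil attractants Cxcl2 and Cxcl3 were higher in the knockout. Cxcl3 was at 1.70 FPKM in wild-type cells against 4.93 FPKM in knockout cells, 2.20-fold higher on 33 and 94 reads, with a read interval of 0.95 to 2.15. Cxcl2 was listed at 0 in wild-type cells; the knockout value was 1.61 FPKM, on 32 reads, and against a floor of 3 reads in the wild-type library it was at least 10.8-fold higher. That floor leaves out the counting error of the 32 reads. The exact read interval began lower than this bound, at 3.06 on the log2 scale. Cxcl1 and Cxcl5, which act on the same receptor, were under 1 FPKM, at 0.05 and 0.56 FPKM and at 0.03 and 0.13 FPKM. Cxcr2, which binds all of these, was lower. Cxcl16, the CXCR6 ligand, was 1.49-fold higher, just inside the limit, with a read interval of 0.55 to 1.93, and 552 bases of its exons overlap Zmynd15 on the opposite strand, at 0.11 and 0.08 FPKM.

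The remaining measured ligands are homeostatic. Ccl27a, a skin chemokine that acts on CCR10, stood at 5.24 FPKM in wild-type and 2.66 FPKM in knockout cells, 1.70-fold lower on 63 and 33 reads. Ccl27a has 5 near-identical copies, so its own value is uncertain: Ccl27b and Gm13306 were not analysed here, and Gm20878, Gm21586 and Gm21953 were at most at 0.33 FPKM in either library. Ccl25, the gut and thymus ligand of CCR9, was at 1.80 and 1.49 FPKM; 204 bases of its exons overlap Elavl1 on the opposite strand, at 17.7 and 20.4 FPKM, and reads of overlapping genes cannot be told apart without known strand. The 16 ligands under 1 FPKM in both libraries ranged from 0 to 0.95 FPKM in the wild type and from 0 to 0.56 FPKM in the knockout, and the 7 receptors under 1 FPKM from 0 to 0.62 and from 0 to 0.48 FPKM. Ackr2, Ccl8, Ccl11, Ccl12 and Cxcl15 were listed at 0 in the wild type beside at most 4 reads in the knockout, and Ccl7 and Ccr1l1 at 0 in the knockout.

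Markers of antigen-presenting cells were higher beside these ligands. Of 19 macrophage and dendritic cell markers, 9 were measured, and 7 were at least 1.5-fold higher and 1 lower in the knockout. These counts stand beside 2.71% and 5.19% of all measured genes, and the lower one was Xcr1. Cd14 (0.53 and 1.55 FPKM) and Mmp12 reached 1 FPKM in the knockout library only, so a higher value there was a condition of being counted. Without Xcr1 the list summed to 41.0 FPKM in wild-type and 93.4 FPKM in knockout cells. Class II genes accounted for most of this, with Cd74 at 15.4 and 39.4 FPKM, whereas the lineage genes Adgre1 and Csf1r were at 0.06 and 0.08 FPKM and at 0.09 and 0.26 FPKM. Clec9a and Fcgr1 were listed at 0 in the wild type. Mmp12, a macrophage metalloelastase, was at 0.52 and 7.72 FPKM. Their part in the values of Ccl6, Ccl9, Ccl22, Ccl24, Cxcl2 and Cxcl3 was not tested.

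The sequences upstream of the start sites were read for short motifs of factors that act in T cells. RefSeq (GRCm38.p6) gave 23 windows of 250 bases before a start for 19 of the 25 measured genes. Ccl4, Ccl5, Ccl24, Cxcl16, Ccr7 and Cxcr5 had no window and were not searched. Each was searched on both strands for 4 motifs: the NF-kB form GGNNTTTCC, the forkhead form GTAAACA that Foxo factors bind, the T-box form GGTGTGA and the STAT form TTCNNNGAA. These letters are one of several forms in use for each factor and were set after the levels were seen; a longer NF-kB form had been searched first and matched windows of the same genes. The series title names Foxo1 as a target of lncRNA-GM. The windows below are those of the 3 ligands with an NF-kB match (Cxcl2 and Cxcl3 past the 1.5-fold limit, Ccl9 inside it), and of Cxcr6 and Ccr8, the receptors with the most abundant lower and higher RNA in their directions, 5′ to 3′ with motif matches in capitals.
Cxcl2: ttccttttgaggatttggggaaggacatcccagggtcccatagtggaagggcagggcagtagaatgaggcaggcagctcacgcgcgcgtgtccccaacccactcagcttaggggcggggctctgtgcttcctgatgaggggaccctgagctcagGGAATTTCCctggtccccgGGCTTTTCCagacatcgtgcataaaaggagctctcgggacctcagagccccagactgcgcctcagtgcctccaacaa
Cxcl3: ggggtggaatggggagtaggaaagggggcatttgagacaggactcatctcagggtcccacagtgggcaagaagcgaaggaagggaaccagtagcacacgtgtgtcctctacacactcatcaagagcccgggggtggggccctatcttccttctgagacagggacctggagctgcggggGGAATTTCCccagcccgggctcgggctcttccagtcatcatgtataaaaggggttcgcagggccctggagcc
Ccl9: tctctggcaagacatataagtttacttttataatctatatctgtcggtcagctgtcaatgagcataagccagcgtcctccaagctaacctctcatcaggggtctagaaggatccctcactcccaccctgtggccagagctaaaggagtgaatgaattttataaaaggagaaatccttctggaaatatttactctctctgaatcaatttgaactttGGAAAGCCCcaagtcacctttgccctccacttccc
Cxcr6: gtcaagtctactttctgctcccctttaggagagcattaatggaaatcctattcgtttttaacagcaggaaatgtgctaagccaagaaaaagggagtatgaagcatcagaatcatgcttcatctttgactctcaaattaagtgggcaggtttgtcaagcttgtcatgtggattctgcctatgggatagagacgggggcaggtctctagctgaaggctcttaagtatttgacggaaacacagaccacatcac
Ccr8: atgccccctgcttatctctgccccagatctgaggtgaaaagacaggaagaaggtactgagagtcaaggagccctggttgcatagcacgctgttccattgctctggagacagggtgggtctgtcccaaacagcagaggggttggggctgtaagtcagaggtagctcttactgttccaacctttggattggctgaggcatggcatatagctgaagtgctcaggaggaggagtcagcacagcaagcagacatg

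These windows are chr5:90903649-90903898 (plus strand) for Cxcl2, chr5:90785851-90786100 (plus strand) for Cxcl3, chr11:83578637-83578886 (minus strand) for Ccl9, chr9:123806227-123806476 (plus strand) for Cxcr6 and chr9:120091883-120092132 (plus strand) for Ccr8. Annotated exons of the gene itself cover 28 bases of the Cxcl2 window, 19 of the Ccr8 window and 2 of the Cxcr6 window. The NF-kB form, found in 4.93% of 32851 windows of all genes, was in 3 of the 23 windows, those of Cxcl2 (2 matches), Cxcl3 and Ccl9. It was not in the windows of Ccl6 and Ccl22, which were also higher in the knockout, and in no receptor window searched. Among the lower ligands, Ccl4 and Ccl5 had no window, so no link of the form to direction can be read here. The forkhead form (3.17% of all windows) and the T-box form (3.33%) were in none of the 23. The STAT form (7.02%) was in a window of Ccr6. A match describes these letters and is no evidence of binding.

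Genes that act downstream of chemokine receptors were mostly within 1.5-fold, as were 10129 of all 10998 measured genes. Of 43 signalling genes in the table, 39 were measured, with a median log2 ratio of -0.01. At least 1.5-fold, 1 was higher and none was lower, beside 2.71% and 5.19% of all measured genes. These counts are near those shares and set the signalling genes little apart from other genes. The G protein subunit gene Gnai2, which couples most chemokine receptors, was at 349 FPKM in wild-type cells against 399 FPKM in knockout cells. Rac2, a GTPase of the migrating cell's leading edge, was at 337 and 382 FPKM, and Dock2, its activator, at 70.7 and 72.0 FPKM. The exception was Rgs1, which dampens signalling of chemokine receptors through its action on G proteins, at 55.9 and 132 FPKM, a 2.33-fold higher value. Its relative Rgs16 was at 4.68 and 2.81 FPKM, inside the limit.

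Other migration receptors held a few members with lower values. Of 22 in the table, 16 were measured, with a median log2 ratio of -0.02. At least 1.5-fold, 3 were lower and 1 was higher, beside 5.19% and 2.71% of all measured genes. P2ry14, a receptor of UDP-sugars, stood at 15.2 FPKM in wild-type and 4.69 FPKM in knockout cells. Gpr15, which directs T cells to the colon, was at 73.2 and 31.5 FPKM, and S1pr1, which directs egress from lymphoid organs, was at 34.3 and 22.4 FPKM. Gpr55, a lysolipid receptor, was the higher one, at 1.17 and 2.79 FPKM. Among 10 genes in the table that process chemokines or belong to the family without matching the symbol rule, 6 were measured. By 1.5-fold or more, 2 were lower, beside 5.19% of all measured genes. These were Dpp4, a peptidase that trims chemokines, at 18.9 and 10.96 FPKM, and the platelet chemokine gene Pf4, at 1.74 FPKM and listed at 0 in the knockout. Pf4 was counted as measured only through the wild-type library, so a lower knockout value was a condition of its being counted. Ccrl2, an atypical receptor inside the same superfamily, was at 0.79 and 0.80 FPKM.

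**Figure D4:**
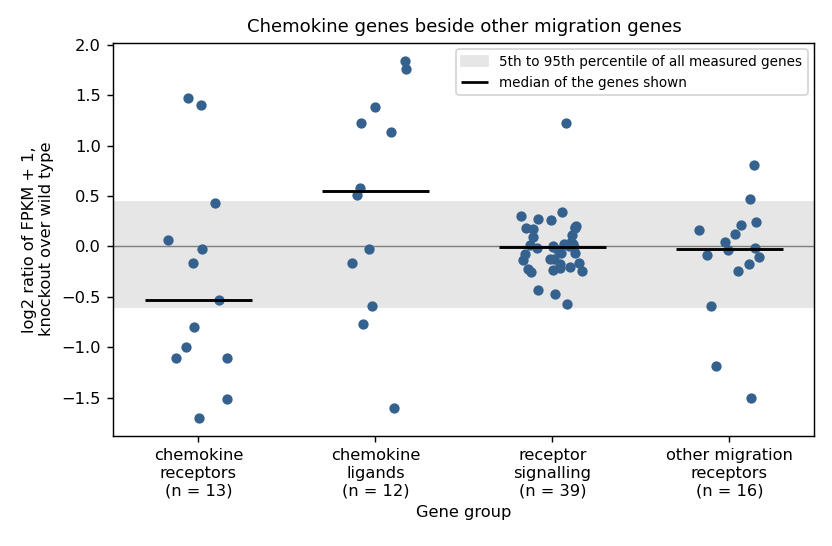
Difference in log2(FPKM + 1), knockout minus wild type, for the measured chemokine receptors, chemokine ligands, receptor signalling genes and other migration receptors, with 1 point per gene, a black line at the median of each group and grey shading from the 5th to the 95th percentile of all 10998 measured genes (-0.60 to 0.44). Receptors and ligands spread well past the shading in both directions, and of the 39 signalling genes only Rgs1 lies outside it.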

How the data were processed

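Total RNA of 2 Th17 cultures, 1 per genotype, was, per the labels' protocols, sequenced with an Illumina HiSeq. The submitters' processing notes name the genome build GRCm38.p6 and the tools RSEM and Bowtie2, with no versions. Whether the reads were stranded or paired, and any filter, is not given in the sources used here.

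A table of 17002 genes was deposited by the authors. Its expression values are named only as expression per the file headers and were taken to be FPKM computed by the authors, since the columns sum to 517664 and 514343 and not to a fixed total. A deposited column of log2 ratios (knockout to wild type), in which values of 0 had been set to 0.01, was not used for results. The p-value column deposited by the authors sets the 2 libraries against each other; which test made it is not given in the sources used here. Their deposited FDR column, taken as a score because 443 genes lie above 1, was not used.

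Differences were computed as log2 ratios of FPKM + 1 over the 10998 genes at 1 FPKM or more in a library. For genes with a value of 0 on one side, the p-values have the form of a Poisson comparison between libraries, and solving them gave whole reads within 0.05 for 1858 of 1866 genes and a wild-type share of 50.4% of reads. The same formula with the FPKM values and the GENCODE M21 transcript lengths gave reads for 46 of 48 members, 25 of 25 measured; 3 needed more than 3% of freedom in the FPKM ratio (Ccr6, Cxcr1 and Ccl24). Depth came from 135 genes with 1 long transcript (quartiles 18.8 and 19.7 M fragments). Reads are not independent molecules without molecular identifiers. BLAST 2.17.0 was used to look for near-identical copies, at 95% identity over at least 50% of a transcript. Coordinates and upstream windows came from RefSeq tables of GRCm38.p6, where all 48 gene IDs matched.

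The members, the 21 gene lists and the alternatives were chosen with earlier results of these data known. A receptor that fits the symbol rule and a gene of the Th17 list are not reported here and are left out of the counts, medians and sums of members and lists; every other member is named or counted; of the pathway lists, up to 3 genes past 1.5-fold or else the most abundant were named, and other list genes named were chosen after their values were seen. Alternatives were other pseudocounts, minima, a fold of 2, centring, reads and summed copies. The steps were tested on simulated data. Software was scipy 1.17.1, pandas 2.3.3, matplotlib 3.10.9 and numpy 2.4.6 under Python 3.11.15.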

Additional observations from a re-analysis of the deposited data

How the results depend on the processing

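No paired analysis was possible because each genotype has 1 library and no result comes from a test; leaving out a library was likewise not possible. The 16 measured members past 1.5-fold kept their direction in each of the 7 alternatives with values for them, and 8 of them lay inside 1.5-fold with a pseudocount of 5 (Ccl27a, Ccl5, Ccl6, Cxcl2, Cxcl3, Cxcr1, Cxcr2 and Xcr1). Centring on the median of all measured genes brought Ccl5 inside and Cxcl16 outside. Reconstructed reads without a pseudocount took Ccl9, Ccr6 and Cxcl16 past it. A pseudocount of 0.1 on FPKM took only Ccl9 and Cxcl16 past it, and the Ccr6 reads had a loose fit to the FPKM ratio. With a pseudocount of 5, the lower receptors numbered 4, the higher receptors 1, the lower ligands 1 and the higher ligands 2, and the medians were -0.42 for receptors and 0.23 for ligands. On FPKM + 1, the median log2 ratio of the 12 measured ligands was 0.55. It was 0.85 with a pseudocount of 0.1 and 0.95 with reads. Without a minimum the medians were -0.14 for receptors and 0.14 for ligands. With a minimum of 5 FPKM, which left 10 receptors and 5 ligands, 1 receptor and 1 ligand were higher, and the medians were -0.67 and -0.59, so the ligand median turned. It also turned, to -0.10, over the 8 ligands at 1 FPKM or more in both libraries (an alternative added after the data were seen), where 2 ligands and 1 receptor were higher and the receptor median was -0.67. At a fold of 2, 4 receptors and 1 ligand were lower. The ligand medians therefore follow which low genes are counted. Depth limits the genes under 1 FPKM: of these, those listed at 0 in a library rest on at most 6 reads in the other.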
